A study of Rattus norvegicus with 28 samples.

Results

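Penk, Pdyn, Tac1 and Cartpt are 4 genes for peptide precursors that neurons of the striatum make, and they were followed here in the nucleus accumbens (NAc, the ventral striatum) and the medial prefrontal cortex (mPFC) of the rat. They were picked by their Ensembl IDs (ENSRNOG00000008943 for Penk, ENSRNOG00000026036 for Pdyn, ENSRNOG00000007374 for Tac1 and ENSRNOG00000017712 for Cartpt), and all 4 were found among the 15635 genes of the count table. The animals were male young adult Sprague-Dawley rats of 200 to 250 g that had self-administered cocaine with extended access for 10 days. They then received a lentivirus (lenti-pCDH) on both sides of the NAc or the mPFC. It encoded histone H3.3, either unaltered (H3.3WT) or in the form H3.3Q5A, which is resistant to dopaminylation because alanine takes the place of the modified glutamine. Virus expression and forced abstinence lasted 30 days and ended with a test of seeking under cocaine cues. Each region and virus had 7 RNA-seq libraries, 28 in all. Every group had received cocaine and a virus, so no group here shows the level without either. The promoter that drives the transgene and the share of transduced cells are not given in the labels. Whether a library stands for 1 rat or for a pool is not given in the labels, so the tests below rest on the spread from library to library, which may be technical.

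Each of these genes encodes a long precursor that is cut into short secreted peptides. Penk gives the enkephalins and marks the medium spiny neurons of the indirect pathway, which carry the dopamine D2 receptor. Pdyn gives the dynorphins, the natural ligands of the kappa opioid receptor, and Tac1 gives substance P and neurokinin A, the ligands of the tachykinin receptors. Both mark the medium spiny neurons of the direct pathway, which carry the dopamine D1 receptor. Cartpt gives the CART peptides, known in the accumbens as products of a transcript regulated by cocaine and amphetamine. In the cortex, enkephalin, dynorphin and tachykinin precursors are made by subsets of neurons.

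Transcription of peptide precursors of this kind is commonly driven through cAMP and calcium signals. Bases before the start of 3 of the genes are therefore shown with the elements that bear on it. RefSeq sequence (GRCr8, a later build than that of the counts) was at hand for Pdyn, Tac1 and Cartpt but not for Penk. The 250 bases before each of these 3 starts were searched on both strands. The motifs searched were the full cAMP response element TGACGTCA, its core TGACG (which the full element holds on each strand), the AP-1 site TGANTCA and the TATA box TATAAA. The Cartpt stretch (chr2:32991236-32991485, minus strand) holds a full element, in capitals, that begins 142 bases before the start:
Cartpt: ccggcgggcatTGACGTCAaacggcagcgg
The Tac1 stretch (chr4:36645333-36645582, plus strand) holds the core alone, read on the opposite strand and in capitals, 206 bases before the start:
Tac1: ccctaaaattgCGTCAtttcgaaccca
The Pdyn stretch (chr3:137366504-137366753, minus strand) is shown whole, with the letters TATAAA in capitals, which begin 13 bases before the start:
Pdyn: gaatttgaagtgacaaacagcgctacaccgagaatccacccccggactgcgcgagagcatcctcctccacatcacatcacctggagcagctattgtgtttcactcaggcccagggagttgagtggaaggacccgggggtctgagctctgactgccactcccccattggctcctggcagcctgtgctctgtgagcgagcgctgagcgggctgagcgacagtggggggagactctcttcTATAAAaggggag
Of 33469 RefSeq promoters, 1.59% held the full element, 18.2% the core, 6.34% the AP-1 letters and 12.9% the TATA letters. By exact letters, the full element was found before Cartpt alone among the 3 genes. The TATA letters were found before Pdyn alone and the AP-1 letters before none. Near matches, such as TATAAG in the Cartpt stretch, were not counted. These are matches of letters and show no binding.

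The libraries held 15448700 to 51714300 counted reads, with NAc medians of 26610400 (H3.3WT) and 24329100 (H3.3Q5A) and mPFC medians of 28148300 and 35323300. Levels are counts scaled to library size (CPM, with TMM factors). To place each library between the regions, the mean log2 CPM was taken over 254 genes that were at least 4-fold higher in the NAc (NAc-high genes, members left out) and over 273 that were at least 4-fold higher in the mPFC, both lists being made from these same libraries. The NAc-high mean lay between 3.54 and 4.49 in the NAc libraries and between 0.69 and 1.76 in the mPFC libraries. Of the mPFC libraries, H3.3Q5A replicate 34 stood apart with 1.76, followed by H3.3WT replicate 11 with 1.19, and results in the mPFC are therefore given with and without these 2. Titles also bear P1 or P2, a mark left unexplained there. It entered every main edgeR model as a term but not the exact tests of ratios and correlations. Values within each mark are given for the fold changes and some ratios, but not for the correlations.

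All 4 precursors were far higher in the NAc than in the mPFC, under either virus, and for none of them did an NAc library overlap an mPFC library. How many of all genes separate in this way was not counted, so the separation is only described. With H3.3WT the differences were 17.5-fold for Penk, 13.2-fold for Pdyn, 10.3-fold for Tac1 and 100.2-fold for Cartpt (95% interval 26.6 to 377). All 4 passed edgeR's test and had an estimated log2 difference of 1 or more, which 5.57% of all genes tested did in this direction. With H3.3Q5A they were 21.6-fold, 16.8-fold, 9.21-fold and 30.5-fold (9.41 to 98.6), again 4 of 4 against a background of 5.85%. In tissue RNA, fewer cells of a type and less RNA per cell cannot be told apart.

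**Figure D1:**
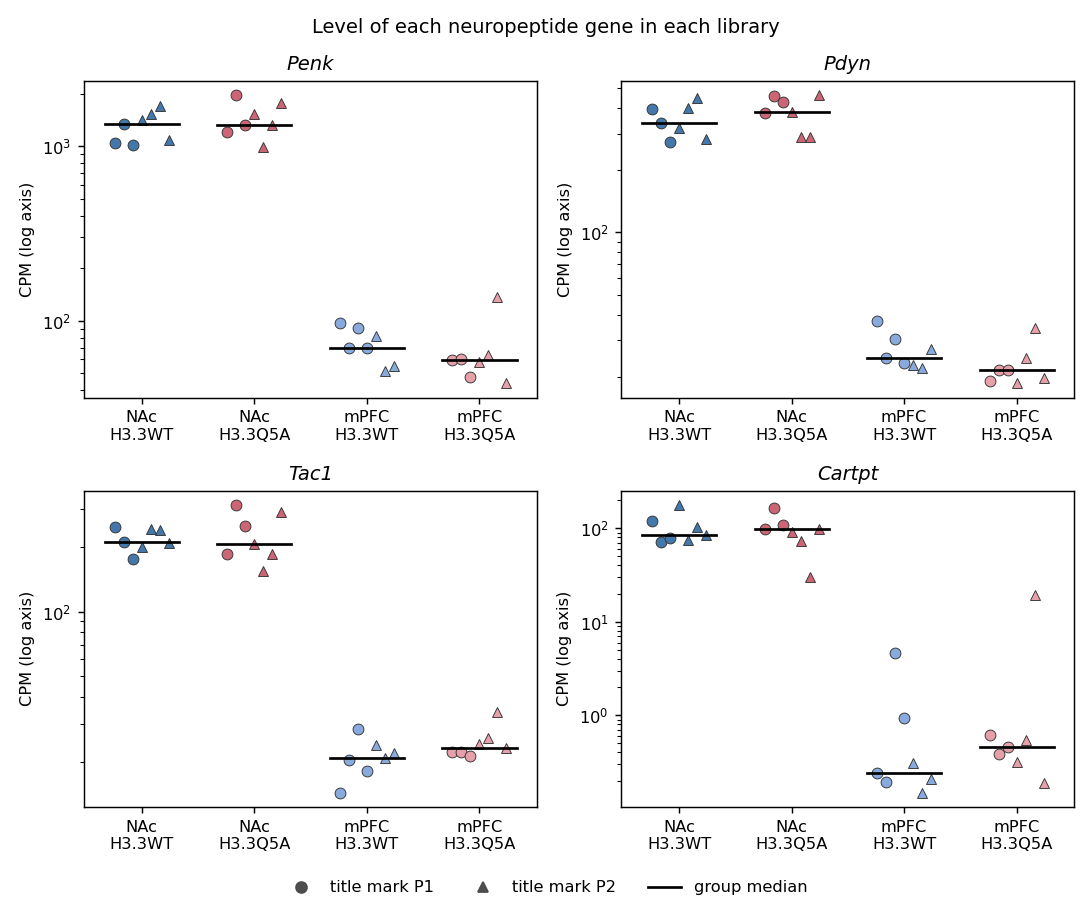
Level of each precursor in every library (CPM on a log axis, 7 libraries per group, bars at the group medians, shape by P mark). For each gene the 14 NAc libraries lie above the 14 mPFC libraries, and the H3.3WT and H3.3Q5A libraries of a region overlap.

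Penk, the enkephalin precursor, ran from 1023 to 1692 CPM in the NAc H3.3WT libraries, with a median of 1335 and a mean of 1303 ± 262 (SD, n = 7). In the NAc H3.3Q5A libraries it ran from 988 to 1957 CPM, with a median of 1320.0 and a mean of 1442 ± 336 (n = 7). In the mPFC it ran from 51.7 to 96.9 CPM under H3.3WT (median 69.8, mean 73.6 ± 17.1), and from 43.9 to 136 CPM with H3.3Q5A (median 59.8, mean 67.0 ± 31.4). The lowest NAc library was thus still 7.24 times the highest mPFC library, and that highest one was H3.3Q5A replicate 34. The log2 differences between regions were 4.13 (SE 0.24, 95% interval 3.64 to 4.61, edgeR adjusted p = 3.59e-13) with H3.3WT and 4.43 (SE 0.24, 3.94 to 4.92, adjusted p = 6.67e-14) with H3.3Q5A, the 45th and 37th highest of 15635 genes.

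Pdyn, the dynorphin precursor, lay between 275 and 444 CPM in the NAc with H3.3WT (median 337, mean 350.2 ± 64.5) and between 288 and 460 CPM with H3.3Q5A (median 383, mean 384 ± 72.2). In the mPFC it lay between 22.01 and 37.4 CPM with H3.3WT (median 24.6, mean 26.8 ± 5.50) and between 18.6 and 34.6 CPM with H3.3Q5A (median 21.5, mean 22.8 ± 5.59). The separation was wide here too, the lowest NAc library standing 7.34 times above the highest mPFC library. The region differences on the log2 scale were 3.72 (SE 0.17, 3.37 to 4.06, edgeR adjusted p = 7.00e-15) and 4.07 (SE 0.17, 3.72 to 4.41, adjusted p = 8.83e-16), and by p-value Pdyn ranked 3rd of all genes under either virus.

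Tac1, the substance P precursor, showed the smallest of the 4 region differences. Its NAc level lay between 176 and 248 CPM with H3.3WT (median 212, mean 219 ± 26.6) and between 155 and 314 CPM with H3.3Q5A (median 208, mean 227 ± 59.7). Its mPFC level lay between 14.3 and 28.4 CPM with H3.3WT (median 20.7, mean 21.1 ± 4.42) and between 21.2 and 34.2 CPM with H3.3Q5A (median 23.02, mean 24.7 ± 4.45). The closest NAc and mPFC libraries were 4.52-fold apart. The log2 differences were 3.37 (SE 0.16, 3.03 to 3.70, edgeR adjusted p = 2.25e-14) and 3.20 (SE 0.16, 2.87 to 3.53, adjusted p = 2.20e-14).

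Cartpt, the CART precursor, varied most within groups. In the NAc its coefficient of variation was 37.1% under H3.3WT and 42.9% under H3.3Q5A, against 12.2% to 26.3% for the other members there. With H3.3WT it ran from 71.3 to 178 CPM (median 85.3, mean 102 ± 37.7), the top value being replicate 17. With H3.3Q5A it ran from 29.8 to 167 CPM (median 99.3, mean 95.4 ± 41.0), with replicate 22 at the bottom and replicate 3 at the top. Replicate 3 was also the highest NAc H3.3Q5A library for Penk and Tac1, and it had the highest NAc-high mean, 4.49. Replicate 22 had a Penk level of 1319 CPM, next to its group's median.

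In the mPFC Cartpt was close to the limit of counting. The H3.3WT libraries had 3, 5, 5, 6, 12, 38 and 132 reads, the last in replicate 11. The H3.3Q5A libraries had 6, 10, 15, 16, 17, 30 and 882 reads, the last in replicate 34. In the NAc H3.3Q5A group the lowest library, replicate 22, was 1.56 times the highest mPFC library, replicate 34. In CPM the mPFC medians were 0.24 and 0.46 and the highest libraries 4.66 and 19.2, so that the groups overlapped and 1 library set most of each mean (0.956 ± 1.66 and 3.09 ± 7.08, n = 7). The region difference of Cartpt on the log2 scale was 6.65 (SE 0.93, edgeR adjusted p = 1.42e-06) with H3.3WT and 4.93 (SE 0.83, adjusted p = 1.45e-05) with H3.3Q5A.

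The same 2 libraries moved the fold of Cartpt far more than that of the other precursors. With both left out, the NAc level of Cartpt was 277-fold (150.3 to 512) that of the mPFC with H3.3WT and 224-fold (124 to 404) with H3.3Q5A. Penk, Pdyn and Tac1 then stood at 18.5-, 13.5- and 10.98-fold with H3.3WT and at 26.0-, 18.4- and 9.81-fold with H3.3Q5A. Within P1 or P2 libraries alone the log2 differences of Penk, Pdyn and Tac1 between regions lay between 2.95 and 4.73 and passed the test in each case. For Cartpt they lay between 3.78, in the H3.3Q5A libraries of P2, which include replicate 34, and 8.86, in the H3.3WT libraries of P2.

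**Figure D2:**
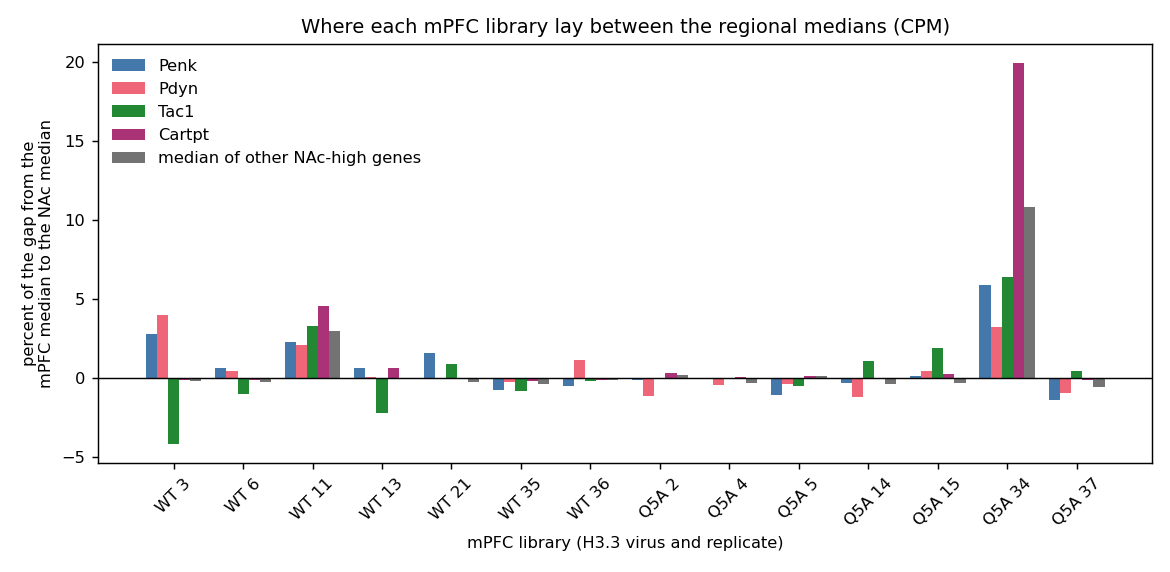
Place of each mPFC library on the way from the mPFC median (0%) to the NAc median (100%), for the 4 precursors and for the median of the other NAc-high genes (CPM scale). H3.3Q5A replicate 34 lies at 19.9% for Cartpt, 5.89% for Penk, 6.36% for Tac1 and 3.23% for Pdyn, and at 10.8% for the NAc-high genes.

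How far the 2 libraries leaned towards the NAc was measured for each precursor as a share of the gap between the region medians. This measure was chosen after the values were seen. For H3.3Q5A replicate 34 the share was 19.9% for Cartpt, 5.89% for Penk, 6.36% for Tac1 and 3.23% for Pdyn, and 10.8% for the median of the other NAc-high genes. For H3.3WT replicate 11 it was 4.57%, 2.27%, 3.29% and 2.07%, against 2.97% for the NAc-high genes. All 4 precursors leaned the same way in both libraries, by unequal shares. H3.3WT replicate 3 differed from this: Pdyn stood at 3.99% and Penk at 2.77% towards the NAc, while Tac1 stood at −4.20% and the NAc-high genes at −0.18%.

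The comparison the study's title points to is that of H3.3Q5A with H3.3WT in the NAc. None of the 4 precursors differed by edgeR's test between the viruses there, and their libraries overlapped. The log2 differences (H3.3Q5A over H3.3WT) were 0.16 for Penk (SE 0.16, 95% interval −0.19 to 0.50, adjusted p = 0.789) and 0.13 for Pdyn (SE 0.14, −0.17 to 0.43, adjusted p = 0.804). They were 0.05 for Tac1 (SE 0.15, −0.27 to 0.37, adjusted p = 0.940) and −0.14 for Cartpt (SE 0.30, −0.77 to 0.50, adjusted p = 0.911). The intervals of Penk, Pdyn and Tac1 thus reach 1.41-fold at most on the upper side, and that of Cartpt spans 0.586-fold to 1.415-fold.

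These members stood among 15315 genes tested, of which edgeR called 0 (0%), while 1200 (7.84%) had an unadjusted p under 0.05, none of them a member. DESeq2 called 9 genes and limma voom with sample weights 57, again with 0 of the 4. The sign of the estimates differed between the marks. Within P1 the log2 differences were 0.39 for Penk, 0.32 for Pdyn, 0.23 for Tac1 and 0.46 for Cartpt. Within P2 they were −0.03, −0.03, −0.10 and −0.60. The lowest adjusted p over these 8 values was 0.453. Beside these values, the NAc-high mean was 3.73 ± 0.17 under H3.3WT and 3.95 ± 0.26 under H3.3Q5A (SD, n = 7), and the mPFC-high mean was 0.78 ± 0.53 and 0.38 ± 0.35. The part of these lists in the virus differences was not tested.

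In the mPFC no precursor differed by edgeR's test between the viruses either. The log2 differences were −0.13 for Penk (SE 0.25, 95% interval −0.66 to 0.41, adjusted p = 0.872) and −0.22 for Pdyn (SE 0.16, −0.56 to 0.13, adjusted p = 0.666). For Tac1 the difference was 0.20 (SE 0.13, −0.08 to 0.49, adjusted p = 0.644). For Cartpt it was 1.20 with an SE of 1.65 (−2.32 to 4.73, adjusted p = 0.810), a value set by single libraries: it was −0.82 without H3.3Q5A replicate 34 and 2.31 without H3.3WT replicate 11. Of 15485 genes tested, edgeR called 0 (0%) and 1221 (7.89%) had an unadjusted p under 0.05, none of them a member. DESeq2 called 8 genes and limma voom 0, with 0 of the members among them. DESeq2 gave Cartpt no adjusted p.

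**Figure D3:**
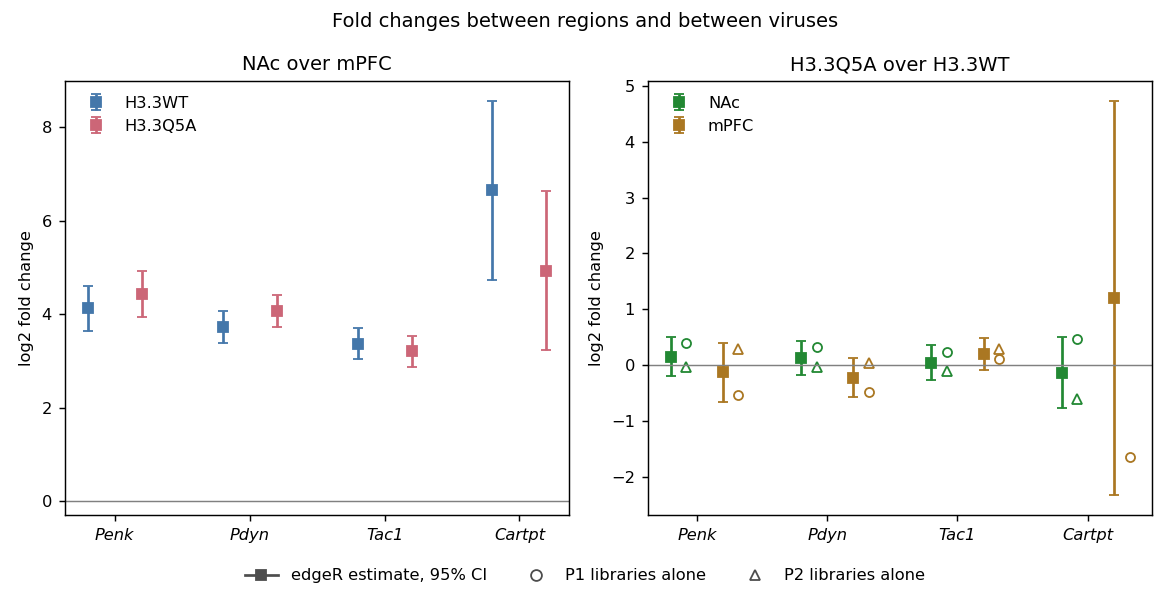
Log2 difference of each precursor between regions (left, NAc over mPFC under each virus) and between viruses (right, H3.3Q5A over H3.3WT in each region). Points with 95% intervals are fits with all libraries, and the right panel adds values within P1 and P2 libraries alone. The intervals between regions lie above 0. Those between viruses all include 0, and Cartpt has no value in the mPFC P2 libraries because its counts there fell under the filter.

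Replicates 34 and 11 were next left out of the mPFC comparison. Penk was then 70.8 ± 16.8 CPM under H3.3WT and 55.5 ± 7.78 CPM under H3.3Q5A (SD, n = 6), Pdyn 26.2 ± 5.76 and 20.8 ± 2.20 CPM, and Tac1 19.8 ± 3.295 and 23.1 ± 1.65 CPM. The log2 differences became −0.34 for Penk (95% interval −0.64 to −0.03), −0.32 for Pdyn (−0.58 to −0.06) and 0.23 for Tac1 (0.04 to 0.42), each with an edgeR adjusted p of 0.770. Without replicate 34 alone, Penk stood at −0.37 and Pdyn at −0.34, each with an adjusted p of 0.769. The single-gene intervals exclude 0 in these settings, but no value passes the adjustment over all genes. By mark, Penk was −0.54 in P1 (95% interval −0.88 to −0.20) and 0.29 in P2 (−0.56 to 1.14). Pdyn was −0.48 (−0.85 to −0.10) and 0.04 (−0.46 to 0.54), and Tac1 0.11 and 0.30. The P1 intervals of Penk and Pdyn also exclude 0, but the edgeR adjusted p of each was 0.9998.

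The difference between the virus effects of the 2 regions (NAc minus mPFC, log2) was tested in 1 model over all 28 libraries. It was 0.31 for Penk (SE 0.30, 95% interval −0.30 to 0.91, edgeR adjusted p = 0.923) and 0.35 for Pdyn (SE 0.21, −0.09 to 0.79, adjusted p = 0.904). For Tac1 it was −0.16 (SE 0.21, −0.60 to 0.27, adjusted p = 0.940) and for Cartpt −1.72 (SE 1.19, −4.17 to 0.74, adjusted p = 0.904). None of the 4 was called, as was none of the 15635 genes tested (0%), with 822 (5.26%) under an unadjusted p of 0.05 and no member among them. DESeq2 called 0 genes and limma voom 9, none of them a member. Within P1 the values were 0.94 for Penk (95% interval 0.34 to 1.54), 0.81 for Pdyn (0.30 to 1.32), 0.13 for Tac1 and 2.12 for Cartpt. Within P2 they were −0.31, −0.06, −0.39 and, for Cartpt, −5.08 (−8.96 to −1.20). The intervals given for the marks exclude 0, but the edgeR adjusted p was 0.541 for Penk and Pdyn and 0.591 for Cartpt. Without H3.3Q5A replicate 34 the value was 0.55 for Penk (95% interval 0.07 to 1.02), 0.48 for Pdyn (0.09 to 0.87), −0.08 for Tac1 and 0.94 for Cartpt, the last on the other side of 0. With replicates 34 and 11 both out it was 0.49 for Penk (0.02 to 0.97), 0.45 for Pdyn (0.05 to 0.85), −0.16 for Tac1 and −0.31 for Cartpt. The lowest edgeR adjusted p in these 2 settings was 0.868.

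The ratio of 2 precursors within a library needs no scaling between libraries, and in the striatum it sets an indirect-pathway gene (Penk) against direct-pathway genes (Pdyn and Tac1). Ratios are given as log2 of 1 count over the other. They are not corrected for transcript length, so only differences between libraries can be read from them. In the NAc none of the 6 ratios differed between viruses by the exact permutation test. For Penk over Tac1 the log2 ratio was 2.56 ± 0.27 under wild-type H3.3 and 2.68 ± 0.16 under H3.3Q5A (exact two-sided p = 0.357, adjusted over 9 ratios 0.616). Log2 Penk over Pdyn was 1.89 ± 0.23 and 1.90 ± 0.21 (p = 0.947 by the same exact test), and log2 Pdyn over Tac1 was 0.67 ± 0.13 and 0.78 ± 0.17 (exact p = 0.210, adjusted 0.616). The 3 ratios to Cartpt differed by 0.19 to 0.30, with exact p-values from 0.358 to 0.566.

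In the mPFC 1 of the 3 ratios tested passed the adjustment, in a test that does not take the P mark into account. Log2 Pdyn over Tac1 was 1.38, 0.27, 0.10, 0.37, −0.06, 0.09 and 0.31 in H3.3WT replicates 3, 6, 11, 13, 21, 35 and 36 (mean 0.35 ± 0.48). It was −0.22, −0.05, 0.03, −0.38, −0.07, 0.02 and −0.23 in H3.3Q5A replicates 2, 4, 5, 14, 15, 34 and 37 (mean −0.13 ± 0.15). All 7 H3.3Q5A libraries lay below the H3.3WT median of 0.27, and 6 of the 7 H3.3WT libraries lay above the highest H3.3Q5A library, so the groups overlapped through H3.3WT replicate 21 alone. The difference of −0.48 had an exact permutation p of 0.00291 over all divisions of the 14 libraries, adjusted over 9 ratios to 0.0262. When libraries were reassigned only within each mark, a test added after the data were seen, the difference was −0.45 (exact permutation p = 0.00735) and its p adjusted over the 9 ratios was 0.0661, so the call was lost. In the P1 libraries alone the difference was −0.61 (exact p = 0.0571) and in P2 alone −0.28 (exact p = 0.114).

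The sign of that ratio difference was the same in every setting tried, but its size and its call were not. Without H3.3WT replicate 3, the library with the highest ratio, the difference was −0.31 with an adjusted exact permutation p of 0.0524. Leaving out any of 6 H3.3Q5A libraries (2, 4, 5, 14, 15 or 37) gave adjusted permutation p-values from 0.0629 to 0.0892, and leaving out both replicates 34 and 11 gave −0.55 with 0.0584. The mPFC ratio of Penk over Tac1 (log2) averaged 1.80 ± 0.48 under H3.3WT against 1.36 ± 0.33 under H3.3Q5A. The difference of −0.44 did not pass (exact p = 0.0594, adjusted 0.267). Without H3.3Q5A replicate 34 it was −0.54, with an adjusted exact permutation p of 0.0472. Log2 Penk over Pdyn differed by 0.04 (exact p = 0.788). In the NAc the Pdyn over Tac1 difference had the other sign, 0.11, and whether the 2 regions differ in it was not tested.

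**Figure D4:**
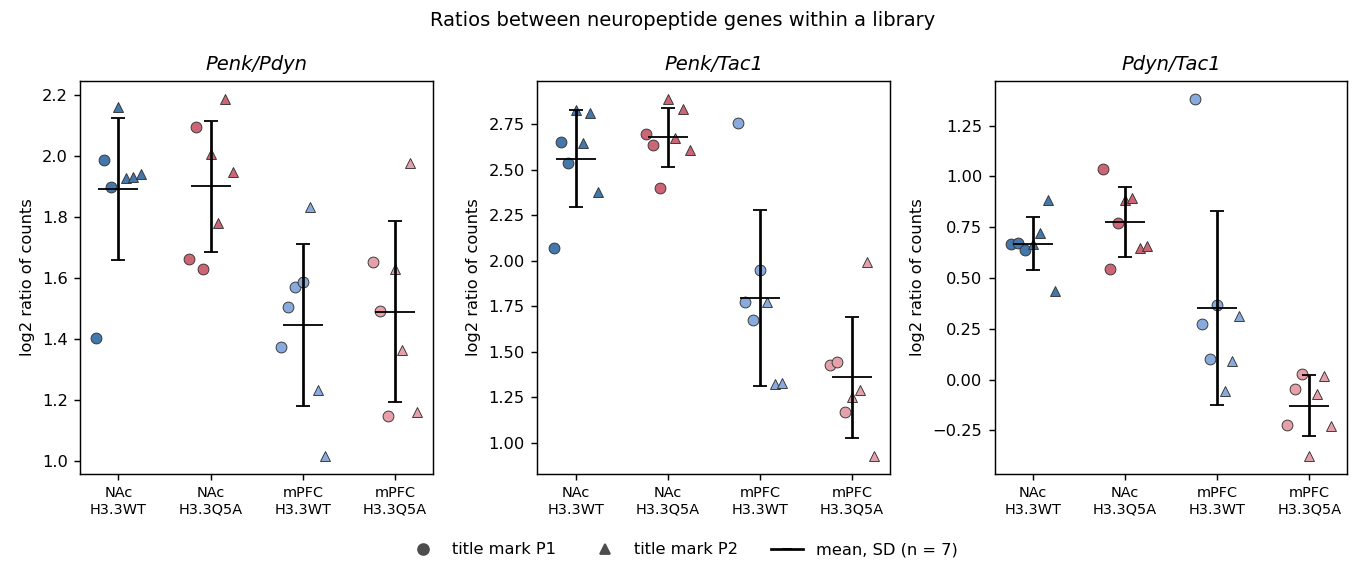
Log2 ratios of Penk, Pdyn and Tac1 counts in every library by region and virus (points are libraries, bars are group means, shape by P mark). In the mPFC the H3.3Q5A libraries lie between −0.38 and 0.03 for Pdyn over Tac1 and the H3.3WT libraries between −0.06 and 1.38, with replicate 3 at the top.

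The balance of the precursors also differed in level between the regions, given here as a description. Log2 Penk over Tac1 was 2.62 ± 0.22 over the 14 NAc libraries and 1.58 ± 0.46 over the 14 mPFC libraries. Log2 Pdyn over Tac1 was 0.72 ± 0.16 and 0.11 ± 0.42, and log2 Penk over Pdyn 1.90 ± 0.22 and 1.47 ± 0.27. Relative to Tac1, then, both opioid precursors stood higher in the NAc. Cartpt went the same way, and by far more. Log2 Tac1 over Cartpt, in which Cartpt is the divisor, was 1.26 ± 0.54 in the NAc and 5.34 ± 1.73 in the mPFC.

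Between libraries of 1 group, only Pdyn and Tac1 had an r near 0.90 in both NAc groups. Pearson's r of log2 CPM between Pdyn and Tac1 was 0.90 with H3.3WT (Spearman's rho 0.82, exact permutation p of r 0.0111, adjusted over 24 pairs 0.0667) and 0.90 with H3.3Q5A (rho 0.93, exact p 0.00714, adjusted 0.0571). Without the 2 libraries farthest from the median it was 0.88 and 0.98. Between Penk and Pdyn r was 0.65 with H3.3WT (rho 0.75, exact permutation p of r 0.122, adjusted 0.209, 0.93 without the 2 farthest). With H3.3Q5A that r was 0.77 (rho 0.89, exact permutation p 0.0421, adjusted 0.101, 0.54 without the 2 farthest). Penk followed Tac1 with r = 0.91 under H3.3Q5A (rho 0.96, exact p 0.00496, adjusted 0.0571, 0.70 without the 2 farthest) and with r = 0.44 under H3.3WT (rho 0.32, exact p 0.310, adjusted 0.414). Cartpt had r between 0.04 and 0.12 with the other members in the NAc H3.3WT group (exact p from 0.813 to 0.918) and between 0.46 and 0.81 in the H3.3Q5A group (exact p from 0.00714 to 0.304). In the mPFC H3.3Q5A group all r were 0.88 or higher, a relation that rests on the 2 libraries farthest from the median: without them r ran from −0.54 to 0.67. No correlation passed an adjusted exact permutation p of 0.05 in any group.

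Genes whose level followed each precursor most closely were sought over the 14 NAc libraries after the group means were removed. The closest to Penk was ENSRNOG00000025946 (r = 0.94, rho = 0.91), to Pdyn ENSRNOG00000001184 (r = 0.92, rho = 0.92), to Tac1 ENSRNOG00000053045 (r = 0.96, rho = 0.96) and to Cartpt ENSRNOG00000010312 (r = 0.90, rho = 0.77). Of 15314 other genes, 128 had an r over 0.8 with Penk, 95 with Tac1, 55 with Pdyn and 35 with Cartpt. How many an ordinary gene has was not counted. The median r with the NAc-high genes was 0.42 for Penk, 0.35 for Pdyn, 0.38 for Tac1 and 0.30 for Cartpt, and with the mPFC-high genes −0.42, −0.25, −0.21 and −0.17. Over all genes the median r was −0.03 for Penk, 0.005 for Pdyn, 0.003 for Tac1 and −0.07 for Cartpt. At the median, all 4 precursors were thus related positively to the NAc-high genes and negatively to the mPFC-high genes. That is a description across genes measured in the same libraries and at the same depth.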

How the data were processed

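Polyadenylated RNA of 28 tissue samples was extracted with Trizol, cleaned with an RNeasy Micro kit and made into TruSeq RNA V2 libraries, which do not mark strand, per the labels' protocols. The deposited values are raw counts per Ensembl gene, not normalized. HISAT2 2.1.0, featureCounts 2.0.1, DESeq2 1.6.3 and build rn6 are named in the submitters' processing notes, without their roles, and the release of the annotation was not given. Each of the 15635 genes in the deposited table reaches 10 counts in 14 libraries or more, so a filter came before deposit, and genes outside the table were not analysed here. All columns belong to the series.

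Groups came from the sample titles. Counts were tested with edgeR 4.0.16 (quasi-likelihood F test, R 4.3.3) after TMM scaling and filterByExpr by group, with the P mark as a term and Benjamini-Hochberg adjustment over all genes tested. Calls needed an adjusted p under 0.05 and, between regions, a log2 fold change of at least 1. The virus comparisons used the 14 libraries of a region, the others all 28. Log2 CPM used a prior count of 2 and ratios added 0.5 to each count. Ratios and correlations were tested by exact two-sided permutation (Python 3.11.15), adjusted over 9 and 24 tests. DESeq2 1.42.0 and limma 3.58.1 (voom), other scalings, no filter, no P term, each P mark alone and leaving out each library were alternatives. For the ratios, leaving out 2 mPFC libraries together and reassigning libraries only within each P mark were added after seeing the data. The fits were tested on simulated data. No 2 libraries of a group agreed within sampling noise (smallest chi-square per degree of freedom 7.56).

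The 4 genes, lists and tests were chosen with earlier results of these data known. The rule for naming genes was the 4 members, plus the gene most like each in the NAc libraries. The symbols of the 4 IDs came with the list that defines the set. The reference table (GRCr8) matched 0 Ensembl IDs, so markers of cell types, receptors and other pathway genes, which are listed by symbol, and the added histone itself were not analysed here, and the labelled tissues were not checked against markers.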

Additional observations from a re-analysis of the deposited data

Results flagged for a closer look

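In each group of 7 libraries, the highest and lowest log2 CPM of a precursor and the log2 ratios of its counts were checked with Dixon's test for a value far from its neighbours. Of 34 such groups 9 held one, where chance alone gives about 5% (1 in 20), and the 9 came from 5 libraries, so they are not independent.

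The mPFC H3.3Q5A library 34 was far above its group for Penk (log2 CPM 7.09), Tac1 (5.10) and Cartpt (4.26), while for Pdyn it was also the highest (5.12, with the next at 4.62) but just short of the limit. The mPFC H3.3WT library 3 had a log2 Pdyn over Tac1 ratio of 1.38, with the next library at 0.37.

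In the NAc, H3.3Q5A library 22 had high ratios to Cartpt: log2 5.47 for Penk, 3.28 for Pdyn and 2.63 for Tac1. It is also the deepest library, with 51714300 counted reads. H3.3WT library 17, the shallowest of that group with 15448700, had a low log2 Tac1 over Cartpt of 0.17. H3.3WT library 8 had a log2 Penk over Pdyn of 1.40, below the others.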

How the results depend on the processing

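Under every alternative that gave an adjusted p, all 4 precursors kept their call and direction between regions. With DESeq2, Cartpt kept its direction but had no adjusted p and so no call. No precursor was called between viruses or in the interaction in any setting. Some virus differences that were not called changed sign. In P2 libraries alone, the NAc virus difference was −0.033 for Penk, −0.031 for Pdyn and −0.10 for Tac1, the mPFC one 0.29 for Penk and 0.042 for Pdyn, and the interaction −0.31 and −0.064. In P1 alone, Cartpt was 0.46 in the NAc, −1.64 in the mPFC and 2.12 in the interaction, where Tac1 was 0.13. With limma voom, Tac1 in the NAc was −0.10. The NAc ratios of Penk, Pdyn and Tac1 to Cartpt differed by −0.10, −0.13 and −0.25 in P1, and Penk over Pdyn by −0.0101 in P2. In the mPFC, Penk over Pdyn was −0.079 in P1 and −0.017 with mPFC libraries 34 and 11 out. The NAc H3.3WT correlation of Tac1 and Cartpt was −0.034 with plain totals. The mPFC difference of Pdyn over Tac1 kept its sign but lost its call in P1 (−0.61), in P2 (−0.28), with 34 and 11 out (−0.55) and with libraries reassigned within each P mark (−0.45). The cause of these changes was not tested.

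Leaving out each library in turn gave 0.0396 (without H3.3Q5A 3) to 0.23 for Penk, 0.056 (without H3.3Q5A 28) to 0.20 for Pdyn, −0.051 to 0.12 for Tac1 and −0.29 to 0.075 for Cartpt in the NAc, the latter above 0 without H3.3WT 17 (0.075) or H3.3Q5A 22 (0.0396). In the mPFC Penk ran from −0.37 (without H3.3Q5A 34) to −0.024 (without H3.3Q5A 5) and Pdyn from −0.34 to −0.13. Cartpt ran from −0.82 to 2.31 there and from −2.97 to 0.94 in the interaction. The NAc ratio differences ran from −0.073 to 0.053 (Penk over Pdyn) and −0.027 to 0.28 (Tac1 over Cartpt), and the mPFC ones from −0.038 to 0.11 (Penk over Pdyn), −0.54 to −0.28 (Penk over Tac1) and −0.55 to −0.31 (Pdyn over Tac1).

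No paired analysis was possible because the groups compared share fewer than 2 replicate numbers. Cartpt fell under the filter in the mPFC for P2 alone and with 34 and 11 out, and DESeq2 gave it no adjusted p outside the NAc comparison. Counts of 3 to 38 reads in 12 mPFC libraries limit Cartpt there.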

Other observations

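The levels of the precursors were set against library depth and against the NAc-high and mPFC-high means within each group, a choice made after the data were seen. Over 16 relations with the log2 total count, none passed an adjusted exact permutation p of 0.05. The largest was that of Cartpt in the NAc H3.3Q5A group (r = −0.89, rho = −0.64, exact p of r 0.029, adjusted 0.232, r = −0.79 without the 2 libraries farthest from the median), and in the NAc H3.3WT group r was −0.65 (rho −0.36, exact p 0.133, adjusted 0.581). Cartpt counts in these libraries ran from 1590 to 4096 reads while totals ran from 15448700 to 51714300.

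Over 16 relations with the NAc-high mean, that of Tac1 passed by r in the NAc H3.3Q5A group (r = 0.83, adjusted exact p 0.0212). Its exact permutation p of r was 0.00159, and r was 0.81 without the 2 farthest libraries. By rho it did not pass there (rho = 0.93, adjusted exact permutation p of rho 0.0952). Penk, Pdyn and Cartpt had rho of 0.86, 0.89 and 0.86 in that group, each with the same adjusted p of 0.0952. Their r of 0.78, 0.70 and 0.63 did not pass. In the NAc H3.3WT group the r of Tac1 was 0.10 (rho −0.07, exact p of r 0.821). The difference between these groups was not tested. Cartpt passed by r in both mPFC groups (adjusted exact p 0.0212) but not by rho (0.79 in each, adjusted exact p 0.128). Its r fell from 0.98 and 0.99 to 0.61 and 0.58 without the 2 farthest libraries. Over 16 relations with the mPFC-high mean, none passed.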
